A study of Arabidopsis thaliana with 12 samples.

Results

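In whole Arabidopsis thaliana seedlings, 235 nuclear genes were low after 38 °C but at 0.67 times control or more after 43 °C. This held whether or not the seedlings had met 38 °C a day earlier. The genes were chosen from the measured values. A gene entered when its mean level was at least 5 CPM (nuclear counts scaled to the same total in each library, as counts per 1e6) in control, at most 0.25 times control in the 38 °C group, and at least 0.67 times control in both 43 °C groups. These 235 were 1.49% of the 15786 nuclear loci at 5 CPM or more in control, out of 33320 nuclear loci in all. Another 602 loci fell as low after 38 °C and missed a limit at 43 °C: 426 were under 0.67 times control in both 43 °C groups, 136 after primed heat shock alone and 40 after heat shock alone.

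All seedlings were wild-type Col-0, grown in shaken liquid culture, and total RNA depleted of ribosomal RNA was sequenced in 12 libraries, 3 per group. Growth was in 16 h of light at 21 °C and 8 h of dark at 19 °C. Heating began 2 h into the light period, under weaker light than growth, and these settings are listed alike for all groups. The control group, 6 days old, was not heated, and the priming group of the same age spent 30 min at 38 °C. The heat shock group was 7 days old and went straight to 43 °C for 30 min, and the primed heat shock group, also 7 days old, met 43 °C for 30 min after 2 h at 38 °C and 22 h at 21 °C. The group labels give 30 min where the general protocol gives 2 h, so the length of the heating is uncertain. No group of 7 days without heat was analysed here, so age and heat cannot be told apart in the 43 °C groups against control. Within each library these are whole seedlings, and fewer cells of a type and less RNA per cell cannot be told apart.

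When a plant is warmed, transcription and RNA decay both shift within minutes, and RNAs that are turned over quickly follow such a shift soonest. Many regulators and receptors of defence have short-lived RNAs, and several plant gene families are cut by microRNAs (miRNAs), which pair with a stretch of the RNA and guide its cleavage. Cleaved precursors of the TAS class and some transcripts for pentatricopeptide repeat (PPR) and NLR immune proteins are in addition copied into double strands and diced into secondary small RNAs. PPR proteins bind RNA in plastids and mitochondria, and NLR proteins are intracellular immune receptors.

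The miRNA sites of the set are shown first, because they are sequences that several of its gene families have in common and that the limits did not use. The miRNA families searched were chosen after values were seen. The shares below therefore describe the set and are no independent test. Of 231 genes of the set with a RefSeq transcript, 25 (10.8%) held a stretch that could pair without gaps to a member of 36 well-known miRNA families, against 328 of all 15722 loci searched (2.09%). A stretch counted when its penalty was at most 3.0, with 1 point for a mismatch and 0.5 for a G:U pair. This is a match of letters and no measurement of cleavage. In the lines below, capitals in a miRNA mark its seed, bases 2 to 8, and capitals in a gene mark bases without a Watson-Crick partner in that miRNA. Sequences are RefSeq, build TAIR10.1, written 5′ to 3′ in DNA letters on the transcript's strand.

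The 22-base miR173 is encoded on chromosome 3 and starts the dicing of TAS1 and TAS2 RNAs. All 4 of these TAS loci measured at 5 CPM or more were in the set, and they were 4 of the 6 searched loci with a miR173 stretch. Each stretch lies in the only exon of a noncoding RNA on the minus strand: TAS1A at chr2:11722081-11722102, TAS1B at chr1:18549660-18549681, TAS1C at chr2:16537890-16537911 and TAS2 at chr2:16539991-16540012.
miR173-5p: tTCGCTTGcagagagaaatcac
TAS1A: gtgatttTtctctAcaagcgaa
TAS1B: gtgatttTtctcAAcaagcgaa
TAS1C: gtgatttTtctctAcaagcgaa
TAS2: gtgatttTtctctCcaagcgaa

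The overlapping miR161.1 and miR161.2, both from 1 precursor on chromosome 1, and miR400 are known for targeting PPR transcripts. Of 11 searched loci with a miR161 stretch, 5 were in the set, and of 14 with a miR400 stretch, 4 were. The miR161.2 stretches lie in coding exons of AT1G62590 (chr1:23178190-23178210, minus strand), AT1G62914 (chr1:23302543-23302563, plus strand), AT1G63080 (chr1:23389780-23389800, minus strand) and AT5G65560 (chr5:26202562-26202582, minus strand). The first 3 of these also held a miR400 stretch, as did AT3G22470. AT1G62860, annotated as a pseudogene, held a miR161.1 stretch at chr1:23276018-23276038 on the minus strand. It also held a miR158 stretch with a lower penalty, 1.0 against 2.0.
miR161.2: tCAATGCAttgaaagtgacta
AT1G62590: tagtcacGttcaatgcattga
AT1G62914: tagtcactttcaGCgcattga
AT1G63080: tagtcactttcaaCTcattga
AT5G65560: taAtcacttAcaatgcattga
miR161.1: tGAAAGTGactacatcggggt
AT1G62860: acccTgatgtTgtTactttca
miR400: tATGAGAGtattataagtcac
AT3G22470: gtgacttataGtaTtctcata

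The 22-base miR472 targets NLR transcripts of the coiled-coil class, and 4 of 19 loci with a stretch were in the set. Those of AT5G43740 (chr5:17566541-17566562, plus strand) and AT1G51480 (chr1:19092853-19092874, minus strand) lie in coding exons and were the same 22 bases. miR160 targets the auxin response factors ARF10 and ARF16, repressors of auxin-responsive transcription, and both were in the set among 5 loci with a stretch. Their stretches lie in coding exons at chr2:12115741-12115761 (ARF10, plus strand) and chr4:14704141-14704161 (ARF16, minus strand). TCP4, a regulator of leaf growth and differentiation, held a miR319 stretch in its coding exon at chr3:5063300-5063320 (plus strand). It was 1 of 8 loci with such a stretch. The SPL family gene AT1G69170 held a fully paired miR156 stretch at chr1:26006731-26006750 (plus strand). It was 1 of 71 loci with a miR156 stretch, a share of 1.41% beside 1.47% of all loci searched. For miR172 and miR396 the set held 1 of 34 and 1 of 21 loci. For miR158, miR395, miR858 and miR169 it held 1 of 15, 1 of 8, 1 of 9 and 3 of 13. No other family searched, with close relatives counted together, had a stretch in a gene of the set.
miR472-3p: tTTTTCCTactccgcccatacc
AT5G43740: ggtatgggGggagtaggaaaaa
miR160a-5p: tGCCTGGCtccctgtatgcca
ARF10: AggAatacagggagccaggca
ARF16: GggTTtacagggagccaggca
miR319c: tTGGACTGaagggagctcctt
TCP4: GaggGgTCcccttcagtccaG
miR156j: tGACAGAAgagagagagcac
AT1G69170: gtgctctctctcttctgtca

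As a whole, the set took 0.746% to 0.786% of nuclear counts in the control libraries, 0.148% to 0.179% in the priming libraries, 0.781% to 0.803% in heat shock and 0.687% to 0.701% after primed heat shock. The ratio of priming to control ran from 0.0635 to 0.25, with a median of 0.215. The ratio of heat shock to control ran from 0.671 to 4.02 (median 0.967) and that of primed heat shock to control from 0.674 to 4.2 (median 0.903). These ranges follow from the limits and are given as a description. Heat shock put 11 genes above 2 times control, and primed heat shock 5.

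**Figure D1:**
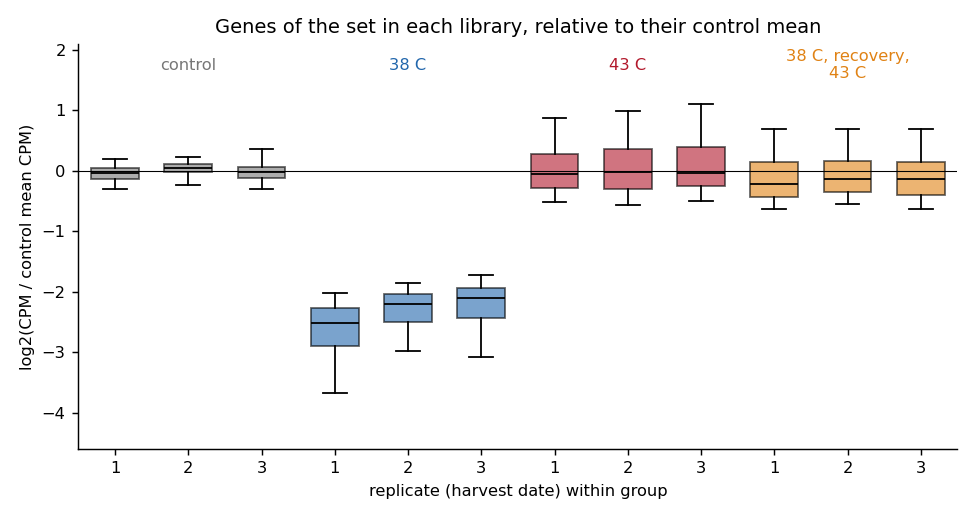
Level of the 235 genes in each library on a log2 scale, relative to each gene's control mean, with the harvest date (replicate number) on the x axis. Boxes span the quartiles with the median as a line and whiskers the 5th to 95th percentiles; only the 3 priming libraries sit far below 0.

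In 234 of the 235 genes all 3 priming libraries lay below the 9 other libraries, which held for 55.9% of the loci at 5 CPM or more in control. The exception was AT1G33055, an uncharacterized gene, at 5.11, 10.4 and 67.6 CPM in control and 3.99, 6.80 and 9.65 CPM in priming. Its entry rested on control replicate 3. All limits were met within each of the 3 harvest dates by 80 of the 235.

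How low the set lies depends on the scaling. Over the loci at 5 CPM or more in control, the median ratio of priming to control was itself 0.611 on the scale of nuclear CPM. With TMM factors, which centre the bulk of the transcripts (median log2 change -0.02 over all sequences tested), the median log2 change of the set in priming against control was -1.49, from -3.22 to -1.27, and 33 genes were at -2 or lower. On that scale edgeR's quasi-likelihood test called 234 of the 235 lower at an adjusted p under 0.05, where 27.1% of the 26161 sequences tested were called lower and 26.7% higher. In heat shock against control it called 62 of the 235 higher and 34 lower (27.9% and 24.5% over all sequences), and in primed heat shock against control 40 and 52 (32.1% and 27.2%). The limits used these contrasts, so nothing is read from these counts. With the limits applied to TMM-scaled CPM, 13 genes met them, 11 of them in the set, so the set is defined relative to all nuclear RNA.

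**Figure D2:**
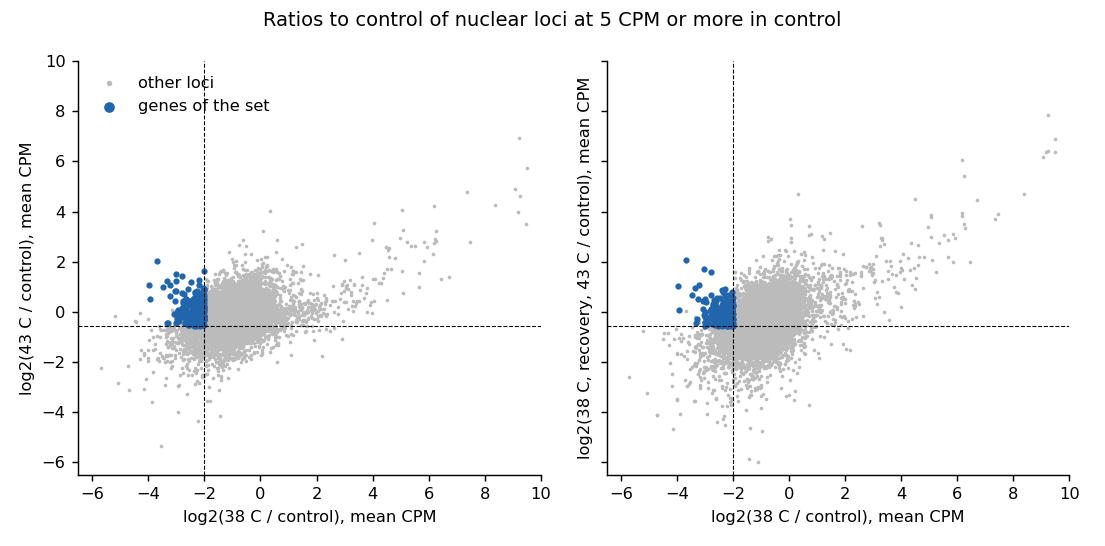
Ratio to control of nuclear loci at 5 CPM or more in control (points, means of 3 libraries, log2 scale), with priming (38 C) on the x axis of both panels, heat shock (43 C) on the y axis at left and primed heat shock (38 C, recovery, 43 C) at right. Dashed lines mark the limits of 0.25 and 0.67 times control; the 235 genes of the set (blue) fill the upper left corner.

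Near the limits the values were continuous. AT1G13940 (0.2499 times control in priming) and AT1G21326 (0.2496) were the last genes inside and AT1G27930 and AT4G21705 (0.2504 each) the first outside. After heat shock, AT2G09795 (0.675 times control) and the AP2-type factor DEAR2 (0.671) were just inside, AT3G01142 (0.657) and AT4G33740 (0.653) just outside. After primed heat shock the nearest inside were AT1G13460 (0.675) and AT2G33051 (0.674), and outside AT5G56240 (0.668) and AT5G09670 (0.667). In control, ATDUF1 at 5.03 CPM and AT5G35935 at 5.004 CPM were inside, AT1G68700 at 4.97 CPM and AT5G15010 at 4.95 CPM outside.

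The TAS precursors had low levels throughout, so their counts limit the precision. TAS1C was at 8.34, 7.80 and 6.49 CPM in control, 0.797, 0.947 and 1.48 in priming, 6.18, 6.60 and 6.58 in heat shock and 6.62, 5.89 and 6.31 after primed heat shock. The 3 priming libraries, with 37 reads or more each, were low and the 9 others did not separate by 43 °C. TAS2, its neighbour on chromosome 2, was at 6.35, 5.94 and 4.91 CPM in control, 0.603, 0.947 and 1.54 in priming, 11.7, 13.7 and 14.1 in heat shock and 9.25, 7.19 and 8.98 after primed heat shock. Every heat shock library of TAS2 thus lay above every other library, and primed heat shock against heat shock, a comparison that the limits did not use, gave a log2 change of -0.58 ± 0.20 (SE; edgeR quasi-likelihood test, adjusted p = 0.045). This call was lost with the harvest date as a replicate block (adjusted p = 0.053), without scaling factors (0.16) and without any of 8 single libraries (0.053 to 0.19). These were control replicates 1 and 2, priming replicate 2, heat shock replicates 2 and 3 and all 3 primed heat shock replicates. TAS1A and TAS1B stood at 0.242 and 0.218 times control in priming. TAS3 and TAS4, which other miRNAs cut, were under 5 CPM in control, at 2.48 and 1.22 CPM, and at 0.365 and 0.416 times control in priming.

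Of 13 genes of the small RNA machinery (Argonautes, Dicers and their partners), none was in the set. On the TMM scale edgeR called 4 of them higher and 3 lower in priming against control, beside 26.7% and 27.1% of all sequences. On the nuclear CPM scale that defines the set, 11 of the 13 were below control in priming, with a median ratio of 0.621 beside 0.611 over the loci at 5 CPM or more in control. AGO1, the main miRNA effector, had a log2 change of 1.38 ± 0.10 and RDR6, which copies cleaved TAS RNA, of -0.50 ± 0.10 on the TMM scale. AGO7, the Argonaute that acts on TAS3, was at 0.178 times control in priming and missed the limits at 43 °C. Small RNAs from TAS1 target the HTT genes, named as heat-induced TAS1 targets, and HTT1 and HTT2 were higher in priming, while HTT4, at 0.0283 CPM in control and 0.071 in priming, was too low to be tested. HTT2 was at 8.06 ± 1.09 CPM (SD, n = 3) in control, 26.8 ± 2.02 in priming, 10.4 ± 0.712 in heat shock and 27.2 ± 1.28 after primed heat shock, and HTT1 at 0.212, 5.50, 0.549 and 2.56 CPM in the same order. Both were called higher in priming against control and in primed heat shock against heat shock.

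PPR genes were the largest group of organelle RNA-binding proteins in the set, with 12 of the 102 PPR genes at 5 CPM or more in control. Outside the set, 132 of 241 tested PPR genes were called lower in priming against control and 24 higher. Over all sequences 27.1% were called lower and 26.7% higher. The median log2 change over all 253 tested was -0.68, against -0.02 over all sequences. AT1G63080 was at 4.90, 5.80 and 6.15 CPM in control, 0.431, 0.446 and 0.431 in priming, 21.2, 22.9 and 23.6 in heat shock and 20.5, 16.5 and 33.7 after primed heat shock. It had the highest 43 °C levels relative to control of the set, at 4.02 and 4.2 times. The pseudogene AT1G62860, which is not among the 12, was at 5.66, 6.70 and 5.91 CPM in control, 0.259, 0.404 and 0.539 in priming, 7.35, 9.63 and 9.0 in heat shock and 6.79, 5.67 and 6.60 after primed heat shock. Its priming libraries held as few as 12 reads.

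The PPR genes differed among themselves at 43 °C. AT1G12775 was also above control, at 2.68 times control in heat shock and 3.04 times after primed heat shock. AT1G62590, AT3G22470 and AT5G65560 stayed between 0.878 and 1.1 times control in both. PPR40, a mitochondrial PPR protein, was at 0.127 times control in priming and 0.872 and 0.873 times control at 43 °C. AT1G62590 shares 60.8% of its 31-base words with AT1G63330, a gene outside the set, so its reads may be split between both. None of the 12 was called in primed heat shock against heat shock by edgeR, none at an unadjusted p under 0.05 and none by DESeq2. Tetratricopeptide repeat-like genes, which the annotation does not always separate from PPR genes, added 9 of 142.

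**Figure D3:**
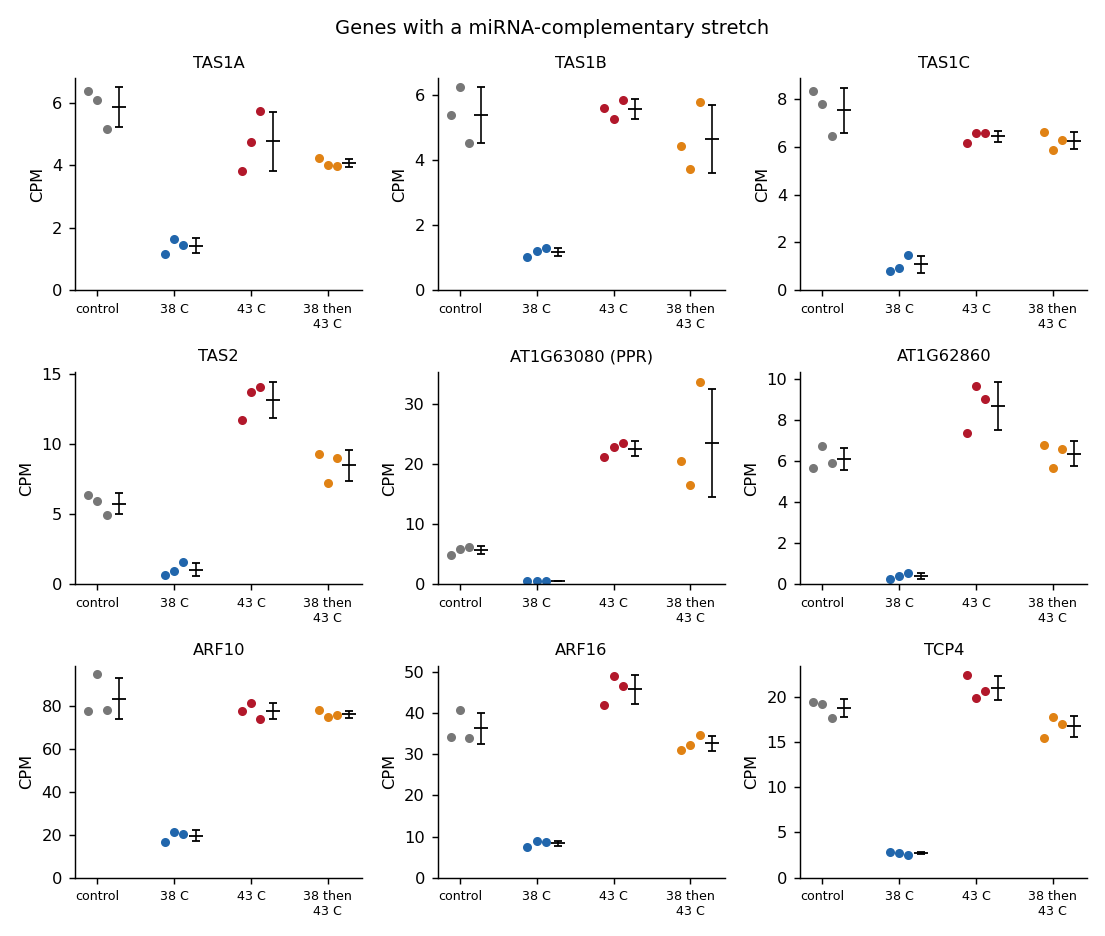
CPM (y axes, from 0) of 9 genes of the set with a miRNA-complementary stretch, by group (x axes); points are libraries and bars the mean ± SD of 3. Each gene is lowest in the 3 priming libraries (38 C). In both 43 C groups AT1G63080 is far above control, while ARF10 is near control.

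Transcription factors that miRNAs target were spread over several families of the set. ARF10 was at 77.6, 94.8 and 78.2 CPM in control, 16.8, 21.4 and 20.6 in priming, 77.7, 81.6 and 74.2 in heat shock and 78.1, 74.8 and 76.0 after primed heat shock. ARF16 was at 34.3, 40.7 and 34.0 CPM in control, 7.52, 8.83 and 8.65 in priming, 41.9, 49.0 and 46.5 in heat shock and 31.2, 32.2 and 34.6 after primed heat shock. Both had low priming libraries only, but ARF16 was lower in all primed heat shock than in all heat shock libraries (log2 change -0.43 ± 0.09, edgeR adjusted p = 0.0036, and 0.17 without scaling factors) and ARF10 overlapped. They were 2 of 17 auxin response factors at 5 CPM or more in control. TCP4 was at 19.4, 19.1 and 17.6 CPM in control, 2.80, 2.79 and 2.56 in priming, 22.4, 19.9 and 20.6 in heat shock and 15.5, 17.7 and 17.0 after primed heat shock. Here too the 43 °C groups did not overlap, with an adjusted p of 0.058 in edgeR, which passed in 6 of the 20 alternatives, DESeq2 among them (0.022).

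The TCP family was low beyond the set, with 14 of its 16 tested genes outside it called lower in priming and none higher. Over all sequences 27.1% were called lower and 26.7% higher. NF-YA2 and NF-YA6, DNA-binding subunits of nuclear factor Y and known miR169 targets, held their stretches in the 3′ untranslated region and stood at 0.237 and 0.239 times control in priming. GRF1 and GRF2, growth-regulating factors that promote cell proliferation in leaves, were at 0.160 and 0.132 times control in priming. GRF1 was lower after primed heat shock than after heat shock (log2 change -0.41 ± 0.12, adjusted p = 0.02, edgeR), a call lost without scaling factors (0.29) and without heat shock replicate 2 (0.11) or primed heat shock replicate 1 (0.088) or 2 (0.081). Their known miR396 site pairs with a bulge, which a search without gaps does not find. AT1G69170 was at 0.146 times control in priming and at 1.27 and 1.09 times control at 43 °C. AT1G67340, a MYND-type zinc finger gene, was at 64.1, 63.2 and 77.0 CPM in control, 14.2, 16.3 and 15.3 in priming, 74.9, 72.4 and 68.5 in heat shock and 70.4, 68.4 and 84.1 in primed heat shock, so only priming stood apart.

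Receptors were the largest functional group. A list of receptor kinases and receptor-like proteins gave 16 of 205 loci at 5 CPM or more in control, of which 7 were receptor-like proteins (RLPs), and NLR genes gave 10 of 129. RLPs carry leucine-rich repeats outside the cell without a kinase inside. Low levels in priming were common in these lists also outside the set: 175 of 279 tested loci of the receptor list were called lower and 26 higher in priming against control, and 88 and 16 of 142 for NLR genes. Over all sequences 27.1% were called lower and 26.7% higher. The 26 receptors and NLR genes of the set had a median of 1.35 times control in heat shock and 1.04 times after primed heat shock, where the other 209 genes had 0.947 and 0.892. The limits used both ratios, so these medians describe genes of the set alone. They say nothing of receptors outside it.

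Primed heat shock against heat shock compares the 43 °C groups of the same age. The limits did not use this ratio, but both groups share the floor of 0.67 times control. With that floor, a gene with a strong change between them must lie above control in the higher group. The floor also left out 136 loci low in priming that missed it after primed heat shock alone, and 40 after heat shock alone. Over the whole set edgeR called 34 genes lower and 9 higher after primed heat shock, where 10.7% and 12.1% of the 26161 sequences tested were called lower and higher. The called shares within the set were 14.5% lower and 3.83% higher, and the median log2 change was -0.07. The libraries of both groups did not overlap in 100 of the 235 genes, against 49.0% of the loci at 5 CPM or more in control. The counts moved by over 1.5 times without single libraries: to 20 lower and 5 higher without heat shock replicate 2, to 22 lower without heat shock replicate 3, to 21 lower without primed heat shock replicate 1 or 2 and to 15 higher without control replicate 3. Without scaling factors 14 were called lower and 11 higher.

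Among the 26 receptors and NLR genes, 8 were lower after primed heat shock and none higher by edgeR, with 1 higher at an unadjusted p under 0.05 and none by DESeq2. Their median log2 change was -0.27, against -0.05 in the other 209. The same direction held in the receptor list outside the set, where 105 of 279 were called lower and 16 higher. Over all sequences 10.7% were called lower and 12.1% higher.

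FLS2, the receptor for bacterial flagellin, was at 26.6, 32.8 and 35.3 CPM in control, 6.03, 7.29 and 9.97 in priming, 66.6, 106 and 122 in heat shock and 17.2, 22.9 and 28.4 after primed heat shock. Every heat shock library lay above every control, and primed heat shock overlapped control. Primed heat shock against heat shock gave a log2 change of -2.05 ± 0.25 (SE; edgeR quasi-likelihood test, adjusted p = 0.00013), the strongest decrease among the 34. FRK1, a receptor kinase that flagellin induces, was at 29.1, 30.4 and 28.4 CPM in control, 5.13, 7.23 and 6.63 in priming, 55.7, 72.7 and 83.2 in heat shock and 20.6, 21.8 and 20.0 after primed heat shock. Its primed heat shock libraries all lay below control and far below heat shock, with a log2 change against heat shock of -1.71 ± 0.13 (adjusted p = 2.0e-07, edgeR).

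RLP52 was at 14.2, 13.7 and 16.2 CPM in control, 1.64, 2.15 and 2.48 in priming, 20.5, 25.9 and 27.2 in heat shock and 14.2, 13.8 and 17.0 after primed heat shock, again without overlap between the 43 °C groups (log2 change -0.65 ± 0.14, adjusted p = 0.0029, edgeR). CRK13, a cysteine-rich receptor kinase, fell by 1.15 ± 0.17 on the log2 scale between heat shock and primed heat shock, and AT2G33170, a leucine-rich repeat receptor kinase, by 0.73 ± 0.16. RPM1, an NLR that detects effector proteins of Pseudomonas, fell by 0.45 ± 0.11, a call lost without scaling factors (adjusted p = 0.17, edgeR).

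Other receptors went a different way. RLP31 was at 7.23, 8.05 and 7.5 CPM in control, 0.474, 1.04 and 0.916 in priming, 16.3, 13.7 and 18.3 in heat shock and 16.7, 16.6 and 14.0 after primed heat shock. Both 43 °C groups were above all controls and overlapped each other (log2 change 0.02 ± 0.15, adjusted p = 0.94, edgeR). BAM2, a kinase related to CLAVATA1 that acts in meristems and anthers, was at 92.3 ± 7.36 CPM in control, 19.3 ± 3.28 in priming, 68.3 ± 6.22 in heat shock and 74.2 ± 4.76 after primed heat shock (SD, n = 3). Its 43 °C groups overlapped. RLP37 was at 0.135 times control in priming.

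Outside the receptors, the genes with the strongest decrease were AT5G59070, a glycosyltransferase-like gene, and AT1G33610, a leucine-rich repeat gene. AT5G59070 was at 9.51, 9.67 and 10.8 CPM in control, 1.23, 1.31 and 1.19 in priming, 21.6, 23.6 and 24.6 in heat shock and 7.5, 9.67 and 8.71 after primed heat shock. It shares 98.4% of its 31-base words with the opposite-strand gene AT5G59080, so its reads cannot be assigned with certainty. AT1G33610 was at 11.4, 13.1 and 13.8 CPM in control, 2.05, 1.67 and 2.1 in priming, 17.8, 22.2 and 22.4 in heat shock and 8.31, 8.61 and 10.2 after primed heat shock. In both genes every heat shock library lay above control. Primed heat shock overlapped control in AT5G59070 and lay below it in AT1G33610, with log2 changes of primed heat shock against heat shock of -1.38 ± 0.11 and -1.15 ± 0.14 (edgeR adjusted p = 5.3e-07 and 2.4e-05).

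The 9 genes that were higher after primed heat shock included a sugar transporter and a BTB protein. SWEET2, a vacuolar sugar transporter, was at 38.2, 31.7 and 36.0 CPM in control, 8.38, 9.0 and 8.76 in priming, 34.1, 28.3 and 25.1 in heat shock and 56.0, 55.9 and 43.7 after primed heat shock. All primed heat shock libraries lay above all others (log2 change 0.88 ± 0.12 against heat shock, edgeR adjusted p = 9.0e-05). BT5, a BTB and TAZ domain protein, was at 108, 115 and 88.0 CPM in control, 21.9, 18.3 and 19.2 in priming, 159, 127 and 141 in heat shock and 193, 179 and 196 in primed heat shock. Both 43 °C groups were above control and did not overlap (0.47 ± 0.12, adjusted p = 0.012, edgeR). AT1G72030, annotated as an acyltransferase, rose by 0.64 ± 0.13, AT1G77660, annotated with a SET7/9 domain, by 0.57 ± 0.13, the uncharacterized AT1G50290 by 0.52 ± 0.16 and the F-box gene AT3G23880 by 0.37 ± 0.12. The call of AT1G50290 was lost without heat shock replicate 1 or 3 or primed heat shock replicate 1 or 2 (adjusted p = 0.065 to 0.12, edgeR). That of AT3G23880 was lost without heat shock replicate 1 or 2 or primed heat shock replicate 1 or 3 (0.052 to 0.13) and with upper-quartile factors (0.065), and that of BT5 without heat shock replicate 2 (0.065).

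**Figure D4:**
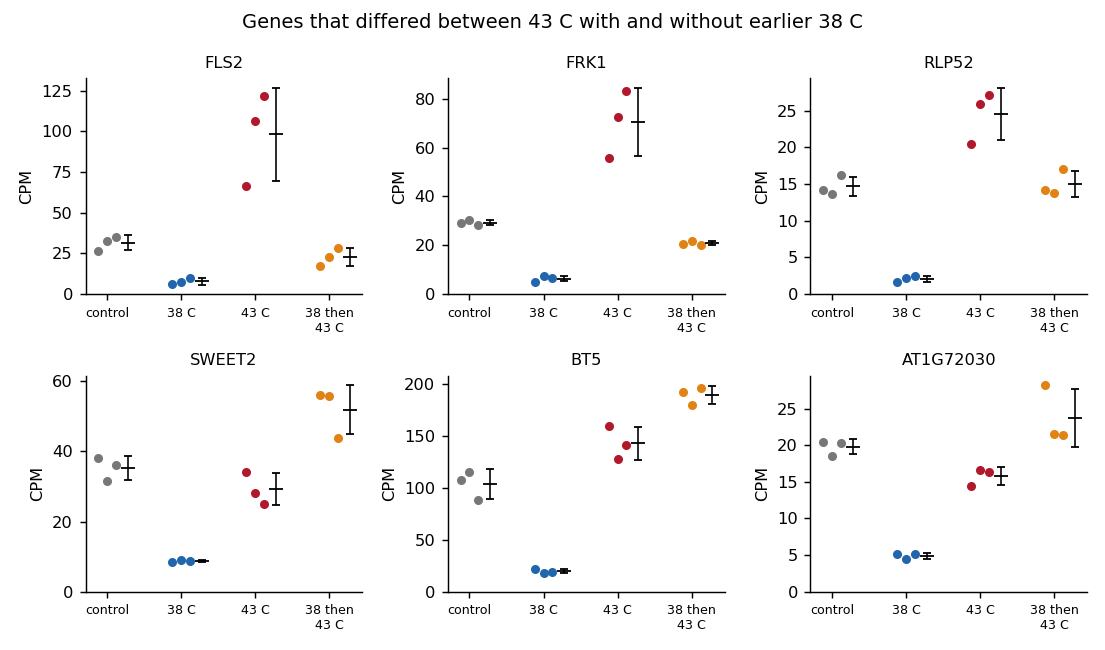
CPM (y axes, from 0) of 6 genes of the set that edgeR called different between heat shock (43 C) and primed heat shock (38 then 43 C), by group (x axes); points are libraries and bars the mean ± SD of 3. FLS2, FRK1 and RLP52 peak after heat shock alone, SWEET2, BT5 and AT1G72030 after primed heat shock. Both 43 C groups had to reach 0.67 times control, so a strong change between them requires the higher group to be above control.

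Signalling genes of the set included the kinases MAPKKK13 and MAPKKK14, members of the class that starts mitogen-activated kinase cascades. MAPKKK13 was at 24.9, 17.8 and 12.7 CPM in control, 2.18, 2.24 and 2.13 in priming, 20.6, 13.1 and 18.7 in heat shock and 23.4, 20.5 and 16.2 after primed heat shock. MAPKKK14 was at 53.7, 31.9 and 29.3 CPM in control, 6.29, 4.40 and 3.66 in priming, 97.6, 41.1 and 66.8 in heat shock and 56.2, 40.8 and 66.4 after primed heat shock. In both genes the priming libraries lay below all others and the 43 °C groups overlapped. The priming libraries of MAPKKK13 were alike, those of MAPKKK14 were not, and no call was made between the 43 °C groups (adjusted p = 0.49 and 0.68, edgeR). PYL6, an abscisic acid receptor, was at 85.1, 117 and 30.1 CPM in control, 18.8, 13.8 and 18.5 in priming, 105, 194 and 190 in heat shock and 58.8, 64.6 and 82.6 after primed heat shock. Its 43 °C groups did not overlap, but the difference missed the threshold (log2 change -1.19 ± 0.45, edgeR adjusted p = 0.094). It passed without control replicate 3 (0.0071), with the 43 °C groups fitted alone (0.026) and by DESeq2 (0.037).

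Of 36 cytokinin response genes at 5 CPM or more in control, 4 were in the set. These were the response factors CRF10 and CRF12, the response regulator RR3, which dampens cytokinin signalling, and the cytokinin-degrading oxidase CKX1. RR3 was at 29.9, 31.5 and 22.6 CPM in control, 4.22, 7.52 and 7.89 in priming, 22.6, 25.2 and 32.2 in heat shock and 19.4, 24.4 and 19.1 after primed heat shock, so only priming stood apart. CRF10 and CRF12 were at 0.199 and 0.125 times control in priming. Each shares its length with a second locus of the set, AT1G68552 and AT1G25472, which has no entry in RefSeq, and the reads of such pairs may be split. CRF10 stood at 14.7 CPM in control and AT1G68552 at 14.5, CRF12 at 5.63 and AT1G25472 at 5.12.

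Transporters gave 6 of 437 loci at 5 CPM or more in control, a share of 1.37% beside the 1.49% of all loci. NRT1.5, which loads nitrate into the root xylem, was among the most abundant genes of the set, at 502, 520 and 779 CPM in control, 101, 139 and 148 in priming, 519, 470 and 412 in heat shock and 577, 547 and 449 in primed heat shock. CAX7, a cation exchanger, was at 66.7 ± 5.23 CPM in control and 10.6 ± 2.21 in priming (SD, n = 3). The summed level of 11 root markers was 1652 to 2188 CPM in control and 698 to 741 in priming. It was 1814 to 1919 in heat shock and 1990 to 2117 in primed heat shock. On the TMM scale edgeR called 6 of the 11 lower in priming and none higher, beside 27.1% and 26.7% of all sequences. None was at 0 in control. In primed heat shock against heat shock 2 of these markers were called higher and 2 lower. Their part in the result was not tested. Also on the TMM scale, of 8 green tissue markers 5 were called higher in priming and none lower, and of 10 seed maturation markers 2 and none. On the nuclear CPM scale the green tissue sum was not higher, at 18894 to 20282 CPM in control and 15350 to 19598 in priming. The seed maturation sum was 52.7 to 132 CPM in control and 63.9 to 90.3 in priming.

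Further abundant genes of the set were the berberine-type oxidase gene AT4G20860, the subtilase gene AT3G14067, AT5G21940, the C2 domain gene AT1G22610 and the RWP-RK factor gene AT4G35270. AT4G20860 was at 749, 705 and 581 CPM in control, 191, 150 and 163 in priming, 802, 767 and 721 in heat shock and 490, 512 and 509 in primed heat shock. Its primed heat shock libraries were below all others except priming, and edgeR called them lower than heat shock (log2 change -0.54 ± 0.13, adjusted p = 0.0056). AT3G14067 was at 334, 381 and 406 CPM in control, 82.1, 83.8 and 82.9 in priming, 321, 328 and 305 in heat shock and 300, 275 and 292 in primed heat shock. CYP86A8, a fatty acid hydroxylase of cutin synthesis, fell to 14.8, 15.5 and 15.5 CPM in priming from 97.7, 100 and 168 in control. All 31-base words of AT1G22610 are shared with the opposite-strand gene ATSAC1.

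The genes of the set tended to be short of introns, a property the limits did not use. Of the 231 with a RefSeq model, 103 (44.6%) had a single exon, against 2171 of 15722 loci (13.8%), with medians of 2 and 5 exons. PPR and tetratricopeptide repeat-like genes, a class known for lacking introns, had 13 of 21 with a single exon, and 41.5% of 171 genes without these, receptors, kinases and NLR genes had one. The 602 loci that fell as low in priming and missed a limit at 43 °C shared the property, with 52.5% of 589. Lengths overlapped, with medians of 1933 bases in the set and 1589 over all loci. Outside the set, the median ratio of priming to control was 0.450 for loci with 1 exon, 0.563 with 2, 0.634 with 3 to 5, 0.661 with 6 to 10 and 0.643 with over 10. The same medians after heat shock ran from 0.798 with 1 exon to 0.977 with over 10. Priming fell to 0.25 times control or lower in 19.0% of single-exon loci and in 0.452% of those with over 10 exons.

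**Figure D5:**
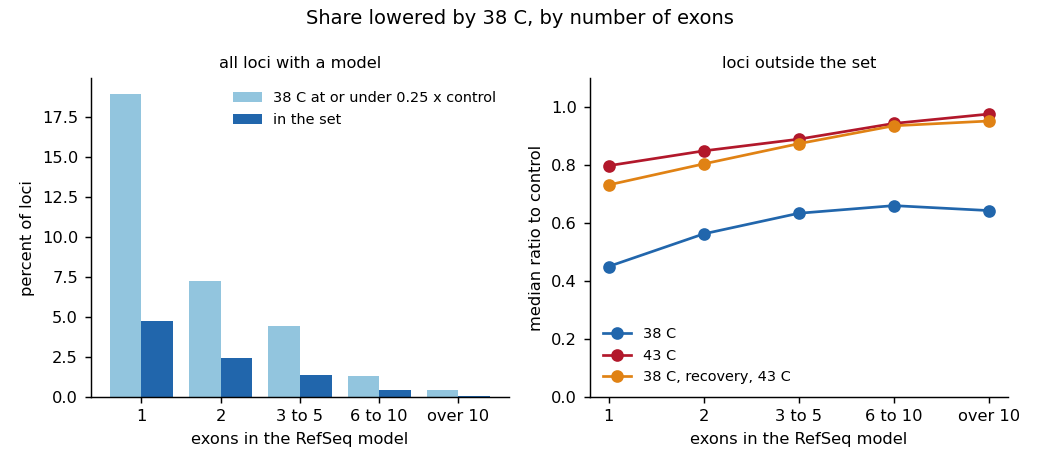
Left, percent of loci at 5 CPM or more in control (y axis) that were at or under 0.25 times control in priming (light bars) and that were in the set (dark bars), by number of exons (x axis). Right, median ratio to control (y axis) of loci outside the set after priming (38 C), heat shock (43 C) and primed heat shock, by number of exons; single-exon loci have the lowest medians, 0.450 in priming.

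The set held 207 protein-coding genes, 9 long noncoding RNAs, 6 other noncoding RNAs, 9 pseudogenes and 4 loci without a RefSeq entry. The gene lowest in priming relative to control, at 0.0635 times, was AT3G27980, a pectin methylesterase inhibitor-like gene, with 6 reads in 1 priming library and 84.6% of its words shared with the opposite-strand AT3G27990. In 11 pairs the next expressed locus on the chromosome was also in the set, among them RLP41 with RLP42, AT1G33600 with AT1G33610 and the near-identical AT1G18000 and AT1G18010. In all, 22 genes shared at least 50% of their words with another locus, 19 of them with one on the opposite strand such as ATDUF1. Without these and the 4 loci lacking an entry, 209 genes remained. Of these, 30 were called lower and 7 higher after primed heat shock than after heat shock, beside 10.7% and 12.1% of all sequences.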

How the data were processed

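Each deposited file lists, for 1 library, unnormalized counts of reads aligned to every reference sequence. The build TAIR10 and the tools Bowtie2, DESeq2 and SAMtools are named in the submitters' processing notes. The libraries are strand-specific per the labels, but tool versions and whether counting used strand are not given in the sources used here. Aligned reads numbered 72075150 to 152118790 per library. CPM is a locus's count per 1e6 counts of nuclear loci without 4 ribosomal RNA loci. Tests used edgeR 4.0.16 (R 4.3.3), TMM scaling with factors of 0.648 to 1.44, filterByExpr with its minimum count at 10, a quasi-likelihood fit (robust) of 12 libraries by group and Benjamini-Hochberg adjustment over 26161 sequences, all 235 genes among them. The fit left out 15 ribosomal RNA loci and unaligned reads. A standard error is the log2 change divided by the square root of its F statistic. The procedure was tested on simulated data. DESeq2 1.42.0, other scalings, no filter, the replicate block, the compared groups alone and leaving out each library were alternatives. Per the labels, libraries with 1 replicate number were harvested on 1 date, so the numbers pair the samples; deviations of same-numbered libraries correlated by -0.02 to 0.06 on average. Separate cultures per replicate are not stated in the labels, and p-values therefore measure only how these samples vary.

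The genes of the set and all lists were chosen with earlier results of these data known. The lists of TAS, PPR, tetratricopeptide, RLP, NLR, auxin response factor, NF-YA, TCP, SPL, MAPKKK and growth-regulating factor genes, the small RNA genes and the miRNA families were chosen after values were seen. Genes are named by a rule: the 10 with a symbol and the lowest ratio of priming to control, the 6 most abundant in control, 2 per family of the first list with at least 3 genes in the set, the 4 strongest changes in each direction between the 43 °C groups, and the neighbours of each limit. Other genes, such as those with a miRNA stretch, were named after their values were seen. Symbols, exons, sequences and coordinates came from RefSeq on TAIR10.1, which held 231 of the 235 genes. The 31-base words were compared between RefSeq transcripts.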

Additional observations from a re-analysis of the deposited data

How the results depend on the processing

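Membership depended on the scale and on each limit: 13 genes met the limits on TMM-scaled CPM (11 of them in the set), 96 on CPM over all sequences without ribosomal RNA, 93 and 653 with a ratio of priming to control of 0.2 and 0.33, 155 and 384 with a control level of 10 and 2 CPM, 140 and 419 with floors at 43 °C of 0.8 and 0.5, and 80 with every limit met within each harvest date, which serves as the replicate block. Priming was called lower in 231 to 234 genes under every setting of the fit to all 235. Without scaling factors, where the median nuclear locus moved by -0.87 in priming and -0.52 in heat shock against control and by 0.12 between the 43 °C groups (log2), 14 genes were lower after primed heat shock than after heat shock, 14 higher in heat shock than in control (62 with TMM) and 11 higher in primed heat shock than in control (40 with TMM). Fitting the 43 °C groups alone gave 17 higher genes between them. The replicate block gave 34 lower and 13 higher, and moved no count of the fit by over 1.5 times; among the named genes it ended the call of TAS2 only. Leaving out 1 library at a time gave 180 to 295 genes by the limits, 231 to 233 lower in priming, 20 to 41 lower and 5 to 15 higher between the 43 °C groups, 45 to 69 higher in heat shock and 33 to 45 higher in primed heat shock against control. Between the 43 °C groups, 33 genes named by the rule and 6 added gave 780 alternative values: 721 kept direction and call, 36 lost and 13 gained the call, and 10, in 7 genes (RLP31, CAX7, CRF12, CYP86A8, MAPKKK14, AT3G14067 and AT1G67340), changed sign with no call before or after. The added genes (TAS2, ARF16, GRF1, CRK13, RPM1 and PYL6) and leaving out loci with shared words were chosen after seeing the data. AT4G35270 lost its call in 7 alternatives and AT1G22610 in 3, and AT5G21940 gained one in 4. Depth limits the ratios of the least abundant genes, with as few as 6 reads in a priming library.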
